A study of Homo sapiens with 24 samples.

Results

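The heat shock proteins described here were followed in A549 and H1975 cells, human lung adenocarcinoma cell lines, after treatment with Pirfenidone at 0.75 mg/ml or with the respective volume of PBS, its solvent, for 6 h or 24 h. The dose is that of the sample labels, and a figure legend of the study gives a higher dose for A549 transcriptome data at these times. The 10 genes were HSPA1A, HSPA1B, HSPA8, HSPH1, HSPA4L, HSP90AA1, HSPB1, DNAJB1, BAG3 and HSPD1. They were found as all probes that carry one of these gene names in the array files, which gave 14 of 34127 probes and 10 of 25992 gene names. The 8 groups were A549 with PBS for 6 h, A549 with Pirfenidone for 6 h, A549 with PBS for 24 h, A549 with Pirfenidone for 24 h, and the same 4 conditions in H1975. Each group held 3 samples, each on its own Agilent one-color array, 24 arrays in all. Every group is cultured cells of a single tumor line, 1 dose was used, and the labels do not say whether the 3 samples of a group came from separate cultures. The study's methods name independent experiments as the general basis of its data, without a statement for these arrays, and p-values here measure the spread between these samples.

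Heat shock proteins are chaperones, proteins that help other proteins to fold and keep damaged ones from clumping. The HSP70 family binds unfolded chains, J proteins bring these chains to HSP70 and start its ATP cycle, nucleotide exchange factors release them, and HSP90 finishes the folding of many kinases and receptors. When unfolded protein accumulates, the transcription factor HSF1 is freed from chaperones and switches on their genes through heat shock elements in the promoters, so that the transcripts of the inducible members rise with protein damage and fall again after it. Most tumor cells hold high levels of these chaperones without any heat. HSPD1 encodes HSP60, the chaperonin of the mitochondrial matrix, so that the name cytosolic fits the product of the other 9 genes and not that of HSPD1.

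Promoters are shown for the 4 genes with the largest drug differences in A549 at 6 h, with capitals marking matches to a heat shock element. The element was searched on both strands as 3 alternating units, GAANNTTCNNGAA or TTCNNGAANNTTC, and as 2 units, GAANNTTC or TTCNNGAA, in the RefSeq promoters of build GRCh38.p14, which span 250 bases before to 50 bases after each annotated start. All 10 genes were matched, with 16 promoters. HSPA8 held 2 matches of 3 units, and HSPA1A, HSPA1B and DNAJB1 held matches of 2 units only. A match of 3 units contains overlapping matches of 2 units. HSPA1A is shown at chr6:31815422-31815459 (plus strand), HSPA1B at chr6:31827618-31827655 (plus strand), HSPA8 at chr11:123062164-123062381 (minus strand) and DNAJB1 at chr19:14518422-14518489 (minus strand), each 5′ to 3′ toward the gene.
HSPA1A: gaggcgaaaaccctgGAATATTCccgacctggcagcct
HSPA1B: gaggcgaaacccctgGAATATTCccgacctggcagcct
HSPA8: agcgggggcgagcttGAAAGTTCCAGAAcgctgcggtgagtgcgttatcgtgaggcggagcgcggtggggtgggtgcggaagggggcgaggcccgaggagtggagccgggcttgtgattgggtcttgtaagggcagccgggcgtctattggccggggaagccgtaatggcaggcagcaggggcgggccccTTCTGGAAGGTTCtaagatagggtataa
DNAJB1: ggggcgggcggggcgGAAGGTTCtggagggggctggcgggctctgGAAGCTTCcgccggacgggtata

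The match in HSPA1A began 106 bases before the start, and that in HSPA1B 105 bases before it, in stretches that are nearly the same. In HSPA8 the 3-unit matches began 230 and 55 bases before the start, and in the DNAJB1 promoter shown the 2-unit matches began 77 and 47 bases before it. Another DNAJB1 promoter held a 2-unit match that began at base 2 of the transcript. Matches of 3 units were also found for HSP90AA1 and HSPD1, so that 3 of the 16 promoters held one (18.8%), against 0.49% of all 35116 promoters. Matches of 2 units were found in 9 of the 16 promoters (56.2%), against 13.5% of all promoters. The stretches of HSP90AA1 (chr14:102087090-102087147, minus strand) and HSPD1 (chr2:197500053-197500090, minus strand), whose drug differences in A549 at 6 h were small, are shown for comparison.
HSP90AA1: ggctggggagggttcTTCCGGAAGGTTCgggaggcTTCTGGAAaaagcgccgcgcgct
HSPD1: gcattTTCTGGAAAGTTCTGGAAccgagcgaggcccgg

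HSPH1 and BAG3 had no match in these windows. A match describes the letters of a promoter and says nothing of binding in these cells.

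On each of the 24 arrays all 14 probes were well above background, and none was saturated. HSPH1 and HSPB1 had 2 probes each and HSP90AA1 had 3, numbered here from the brightest to the dimmest, and the other 7 genes had 1. The probe of HSPA8 (hg19, chr11:122929478-122929537, minus strand) is shown because HSPA8 had the firmest drug difference, and the second probe of HSPB1 (hg19, chr7:75931924-75931983, plus strand) because of its place.
HSPA8 probe: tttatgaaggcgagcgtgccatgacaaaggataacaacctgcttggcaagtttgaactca
HSPB1 probe 2: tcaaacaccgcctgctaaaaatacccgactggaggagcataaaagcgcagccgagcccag

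The sequence of HSPB1 probe 2 was found in the promoter of the gene, from 66 to 7 bases before the annotated start, upstream of the transcript that RefSeq gives, so that its values are given apart from those of the first probe. The probes of HSPA1A and HSPA1B, genes with nearly the same coding sequence, shared no more than 7 bases in a row, and neither shared more than 6 with that of HSPA8. On hg19 the probes of HSPA1A and HSPA1B lie at chr6:31785491-31785550 and chr6:31797870-31797929, that of DNAJB1 at chr19:14625803-14625862, and the first and second HSPH1 probes at chr13:31710796-31710855 and chr13:31711509-31711568, and their exons or UTRs were not looked up. HSPA1A and the second probe of HSP90AA1 were printed at 10 spots per array and every other member probe at 1.

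Values are the log2 of the background-corrected signal minus the 75th percentile of the array, so that 1 unit is a 2-fold change, and a drug difference is Pirfenidone minus PBS on this scale. Signals of different probes are not compared with each other. A probe passed with a limma adjusted p (Benjamini-Hochberg, over the 23827 probes tested) of 0.05 or less and a difference of at least 1 in size, and a second count used the adjusted p alone. The array names carry 4 dates, called runs 1 to 4 here in the order of date. An A549 run held all 4 conditions on 1 slide, and the H1975 arrays of runs 1, 3 and 4 lay on 4 slides, with 1 PBS array of 24 h (run 3) alone on its slide. Place on the slide went with treatment and time and cannot be told apart from them. All 6 epithelial markers (KRT7, KRT8, KRT18, KRT19, EPCAM and CDH1) were detected above background in all 12 arrays of either line. Of 10 markers of blood, endothelial and fibroblast cells, DCN was on no array, CD3E on 1, LUM on the A549 arrays only, and PECAM1, VWF, PDGFRB and COL1A2 on the H1975 arrays only. PTPRC, CD14 and CDH5 were detected in both lines. A lower signal of a culture cannot tell fewer cells with a transcript from less of it in each cell.

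The first question was how the chaperone genes responded to 6 h of Pirfenidone in A549 cells. The inducible HSP70 genes HSPA1A and HSPA1B, the constitutive HSP70 gene HSPA8 and the J protein gene DNAJB1 had lower signals on the Pirfenidone array than on the PBS array in all 3 runs. HSPA8 fell by 0.92 on the log2 scale (standard error 0.13, limma adjusted p = 0.0035), a 1.89-fold lower signal, and was the only member that reached the adjusted p. By limma, 0 of the 14 passed both limits, against 0.176% of all probes tested, and 5 had an unadjusted p under 0.05, against 6.01%. Under the adjusted p alone 1 of 14 passed, against 0.34% of all probes.

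HSPA8 encodes HSC70, the HSP70 protein that every cell makes and that also uncoats clathrin vesicles and feeds chaperone-mediated autophagy. In A549 at 6 h its signal in runs 1, 2 and 3 was 4.67, 4.66 and 4.54 with PBS and 3.40, 4.07 and 3.63 with Pirfenidone. All Pirfenidone arrays lay below all PBS arrays, and the Pirfenidone arrays were spread more widely than the PBS arrays (SD 0.34 against 0.07, n = 3). The 95% interval of the difference ran from -1.20 to -0.65, and 126 of the 23827 probes had a more negative difference. When only the 6 arrays compared were fitted, the limma adjusted p was 0.262, and it stayed at 0.05 or less under 14 of 15 alternatives, that fit being the exception.

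HSPA1A and HSPA1B are neighbors on chromosome 6 and encode almost the same protein, the stress-inducible HSP70. The signal of HSPA1A in runs 1, 2 and 3 was 4.03, 4.85 and 4.42 with PBS and 2.70, 4.03 and 3.42 with Pirfenidone. That of HSPA1B was 2.89, 3.90 and 3.27 with PBS and 1.84, 2.98 and 2.53 with Pirfenidone. Both genes were lowest in run 1 and highest in run 2 with either treatment, so that the groups overlapped although each run gave a lower value with Pirfenidone. The difference was -1.05 for HSPA1A (standard error 0.27, 95% interval -1.62 to -0.48, limma adjusted p = 0.152) and -0.90 for HSPA1B (standard error 0.24, 95% interval -1.40 to -0.41, limma adjusted p = 0.161). Within runs it was -1.33, -0.82 and -1.01 for HSPA1A and -1.05, -0.92 and -0.74 for HSPA1B.

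DNAJB1 encodes HSP40, a J protein that works with the inducible HSP70 and takes part in switching HSF1 off. Its signal in runs 1, 2 and 3 was 1.94, 2.07 and 1.93 with PBS and 1.23, 1.64 and 1.45 with Pirfenidone. The groups did not overlap, and the difference was -0.54 (standard error 0.14, limma adjusted p = 0.165). With run as a block, HSPA1A passed both limits (limma adjusted p = 0.0259), as did 0.323% of all probes. HSPA1B, HSPA8 and DNAJB1 reached the adjusted p in that fit (limma adjusted p = 0.0218, 0.00273 and 0.0177) short of the fold limit. The share of all probes that reached the adjusted p alone with this block is not given. Without the Pirfenidone array of run 2, HSPA1A, HSPA1B and HSPA8 passed both limits, with differences of -1.38, -1.17 and -1.11 (limma adjusted p = 0.0257, 0.0323 and 0.000201). For this fit, too, the share of all probes is not given. The array left out held the highest Pirfenidone value of each of these genes. Over 15 alternatives HSPA1A ranged from -1.38 to -0.71 and HSPA1B from -1.17 to -0.60. Each reached the adjusted p in 3 of the 15, with a limma adjusted p of up to 0.837 and 0.877.

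**Figure D1:**
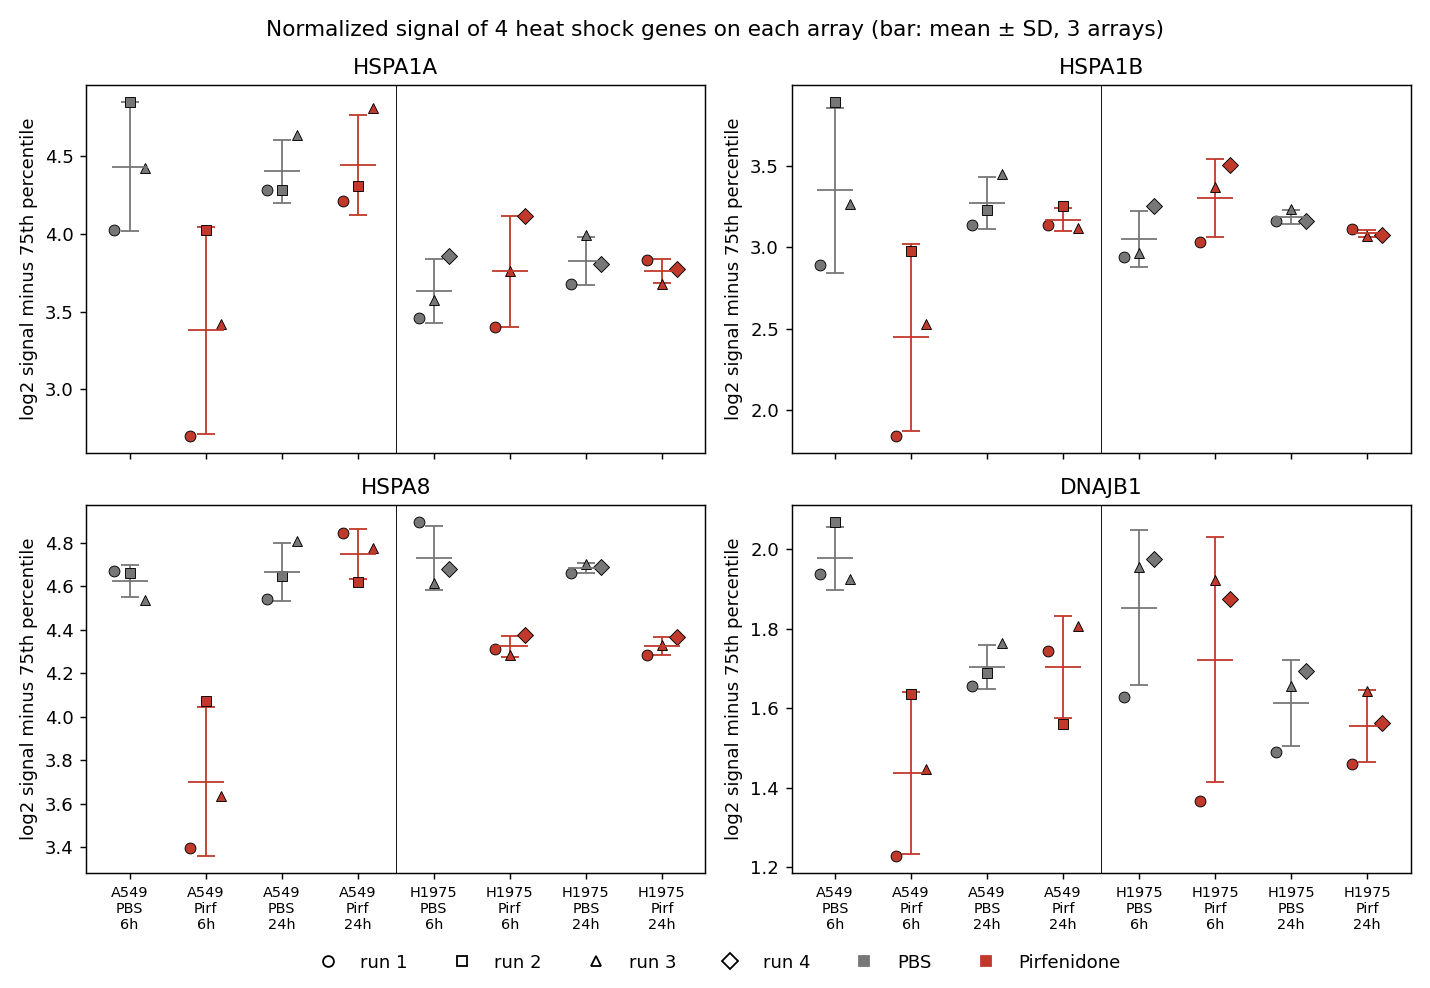
Normalized log2 signal (y axis, log2 signal minus the 75th percentile of the array) of HSPA1A, HSPA1B, HSPA8 and DNAJB1 in the 8 groups (x axis), 1 point per array with the run as its symbol, and bars for the mean ± SD of 3 arrays. In A549 at 6 h HSPA8 lay between 3.40 and 4.07 with Pirfenidone and between 4.54 and 4.67 with PBS, and at 24 h the groups overlapped.

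HSPH1 encodes HSP110, a large relative of HSP70 that acts as its nucleotide exchange factor. Its first probe gave 4.17, 4.68 and 4.22 with PBS in runs 1, 2 and 3, and 3.64, 4.26 and 3.78 with Pirfenidone. Each run was lower with Pirfenidone, by 0.43 to 0.53, and the groups overlapped. The difference was -0.46 (standard error 0.21, limma adjusted p = 0.801), and the second probe gave -0.32 (standard error 0.24, limma adjusted p = 0.99999).

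The other members moved little in A549 at 6 h. HSP90AA1, the inducible cytosolic HSP90, gave -0.11, -0.17 and -0.18 with its 3 probes. HSPB1, the small heat shock protein HSP27 that holds unfolded chains without ATP, gave -0.16 and -0.14. HSPA4L, another HSP110 relative, gave -0.06, BAG3, a co-chaperone that links HSP70 to autophagy, gave -0.03, and HSPD1 gave -0.13. Each of these 8 probes had a limma adjusted p of 0.99999, and the first HSP90AA1 probe had Pirfenidone arrays of 6.50 to 6.58 below PBS arrays of 6.62 to 6.67. The values of HSPA4L and BAG3 were too small to hold a direction: BAG3 was 0.01 with normexp background correction, and without the PBS array of run 2 both were 0.05, and without the Pirfenidone array of run 3 they were 0.04 and 0.03. All 14 probes, with HSPB1 probe 2 among them, had a negative difference, against 53.0% of all probes. By their brightest probes all 10 genes had one, with a median of -0.31, against -0.01 over all probes. In 3 of the 14 probes every Pirfenidone array lay below every PBS array, against 8.24% of all probes. For comparison, negative differences were held by 10 of the 14 probes in A549 at 24 h, against 59.0% of all probes. In H1975 at 6 h they were held by 7 of the 14, against 41.0%.

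**Figure D2:**
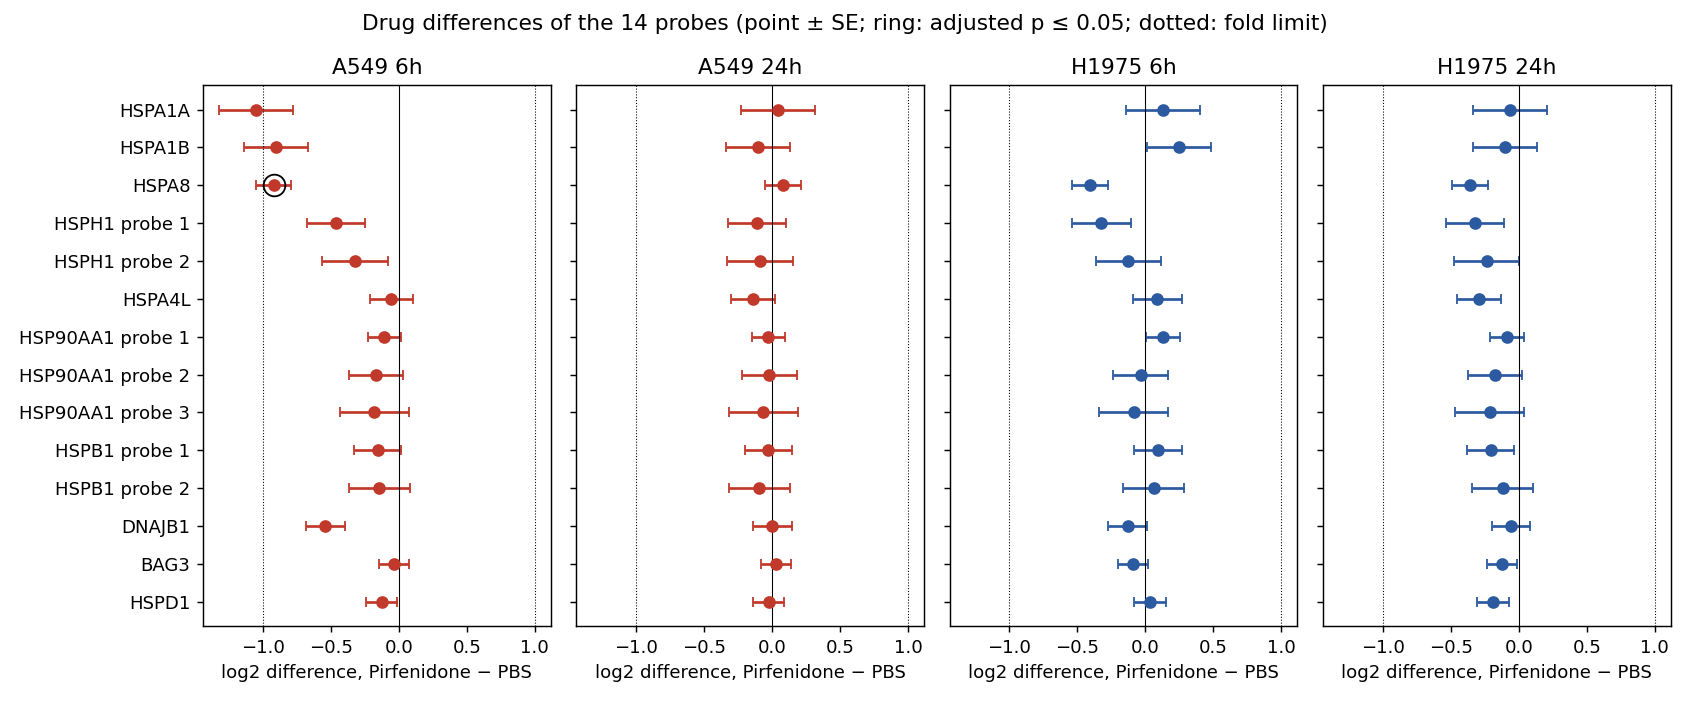
Drug difference (x axis, log2, Pirfenidone minus PBS) of the 14 probes (y axis) in the 4 comparisons, as points with standard errors, with a ring at an adjusted p of 0.05 or less and dotted lines at the fold limit. The ring stands at HSPA8 in A549 at 6 h (-0.92), and the A549 points of 24 h lie between -0.14 and 0.08.

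The second question was whether these differences were still present after 24 h. In A549 at 24 h the signals of the HSP70 genes and DNAJB1 overlapped between the treatments. HSPA8 gave 4.54, 4.65 and 4.81 with PBS and 4.85, 4.62 and 4.78 with Pirfenidone in runs 1, 2 and 3, and the groups overlapped. Its difference was 0.08 (95% interval -0.19 to 0.36), positive in run 1 only (0.31 against -0.03 and -0.03), and it was -0.03 without the arrays of run 1. HSPA1A gave 4.28, 4.29 and 4.64 with PBS and 4.21, 4.31 and 4.81 with Pirfenidone, a difference of 0.04 (95% interval -0.53 to 0.61). HSPA1B differed by -0.10 (95% interval -0.60 to 0.39) and DNAJB1 by 0.00 (95% interval -0.30 to 0.30).

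Of the 14 probes 0 passed in A549 at 24 h with either count, by limma, against 0.0126% of all probes with both limits and 0.0126% with the adjusted p alone, and 0 had an unadjusted p under 0.05, against 0.953%. With run as a block 0 passed, against 0.0378% of all probes. The 3 runs did not move alike: 1 of 14 probes was lower with Pirfenidone in run 1, 9 in run 2 and 11 in run 3, with medians of 0.17, -0.06 and -0.27. The third HSP90AA1 probe was 0.57 higher with Pirfenidone in run 1 and 0.58 lower in run 3.

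The difference between times was tested for each probe as the drug difference at 24 h minus that at 6 h. For HSPA8 in A549 it was 1.0 (standard error 0.19, limma adjusted p = 0.0822), for HSPA1A 1.1 (standard error 0.38, limma adjusted p = 0.99995), for HSPA1B 0.80 and for DNAJB1 0.54. Of the 14 probes 0 passed, against 0.0294% of all probes, while 4 had an unadjusted p under 0.05, against 3.04%. HSPA8 passed with run as a block (limma adjusted p = 0.0491) and without the 6 h Pirfenidone array of run 2, where the difference was 1.19 (limma adjusted p = 0.00492).

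H1975 cells were examined in the same way. At 6 h the HSP70 genes did not move together: HSPA8 had lower values with Pirfenidone, and HSPA1A and HSPA1B had slightly higher means, of which that of HSPA1A turned to -0.01 with normexp background correction. By limma, 0 of the 14 probes passed, against 0.491% of all probes, and 0 reached the adjusted p alone, against 1.41%, while 1 had an unadjusted p under 0.05, against 11% of all probes. With run as a block 0 passed, against 0.949% of all probes.

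HSPA8 in H1975 at 6 h gave 4.90, 4.62 and 4.68 with PBS and 4.31, 4.28 and 4.38 with Pirfenidone in runs 1, 3 and 4. All Pirfenidone arrays lay below all PBS arrays, which held for 1 of the 13 probes with a value on each array, against 7.16% of all probes. The difference was -0.41 (standard error 0.13, 95% interval -0.68 to -0.13, limma adjusted p = 0.170). HSPA1A gave 3.46, 3.58 and 3.86 with PBS and 3.40, 3.76 and 4.12 with Pirfenidone, a difference of 0.13 (95% interval -0.44 to 0.70). HSPA1B gave 2.94, 2.97 and 3.25 with PBS and 3.03, 3.37 and 3.50 with Pirfenidone, a difference of 0.25 (95% interval -0.24 to 0.74, limma adjusted p = 0.836), and it was 0.01 with normexp background correction. Each run was higher for HSPA1B, and the groups overlapped.

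DNAJB1 differed by -0.13 and the probes of HSPH1 by -0.32 and -0.12, and the other members lay between -0.09 and 0.13. Of these probes only the first of HSPH1 and the first of HSP90AA1, with HSPA4L, kept their sign under every alternative run. HSPA4L was 0.09 in a fit that left out the Pirfenidone array of run 3, where its spot was marked as an outlier. The run 3 pair ran high, with 33.5% of all probes lower with Pirfenidone and a median over all probes of 0.12.

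At 24 h in H1975 all 14 probes had a negative difference, against 47.1% of all probes, with a median of -0.16 over the 10 genes and 0.02 over all probes. The negative direction of HSPA1A was not kept with slide as a block (0.04) or without the PBS array of run 3 (0.02), nor that of the first HSP90AA1 and the second HSPB1 probe without the PBS array of run 1 (0.05 and 0.04), while all 14 stayed negative with normexp, quantile normalization and the authors' values. By limma, 0 of the 14 passed, against 1.89% of all probes, and 0 reached the adjusted p alone, against 6.26%, while 1 had an unadjusted p under 0.05, against 22% of all probes. With run as a block 0 passed, against 2.95%. In 4 probes, those of HSPA1B, HSPA8, HSPA4L and BAG3, every Pirfenidone array lay below every PBS array, against 15.6% of all probes.

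HSPA8 gave 4.66, 4.70 and 4.69 with PBS and 4.28, 4.33 and 4.37 with Pirfenidone in runs 1, 3 and 4 at 24 h. The groups were apart by more than their spread (SD 0.02 and 0.04, n = 3), and the difference was -0.36 (standard error 0.13, 95% interval -0.63 to -0.08, limma adjusted p = 0.112). The standard error comes from the spread within all 8 groups, of which the A549 Pirfenidone arrays at 6 h were the most spread (SD 0.34). HSPA4L gave -1.40, -1.29 and -1.15 with PBS and -1.52, -1.62 and -1.58 with Pirfenidone, a difference of -0.29 (standard error 0.16, limma adjusted p = 0.300). The first HSPH1 probe differed by -0.32 (limma adjusted p = 0.413), and HSPA1A and DNAJB1 by -0.07 and -0.06.

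**Figure D3:**
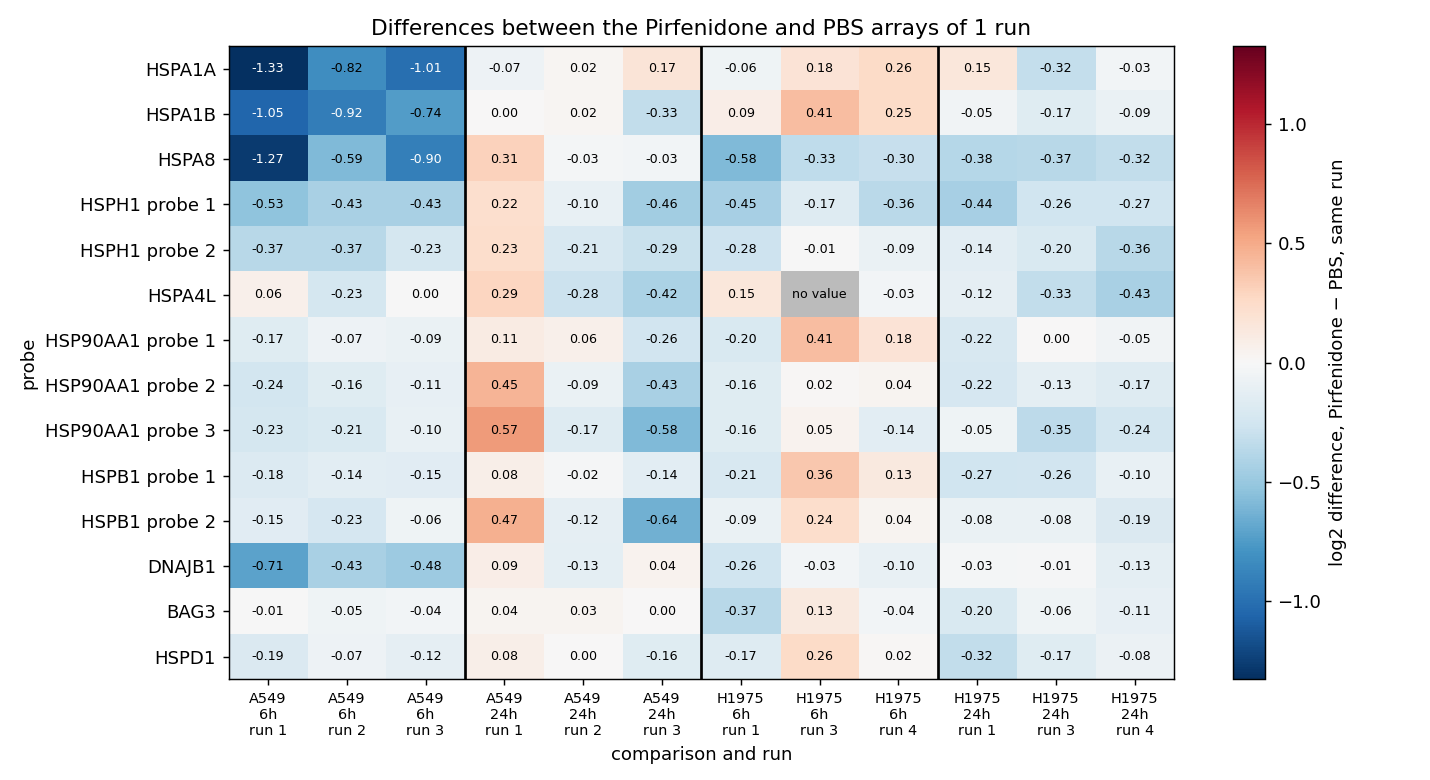
Log2 difference between the Pirfenidone and the PBS array of 1 run (color and printed value) for the 14 probes (y axis) in the 12 pairs of arrays (x axis), with gray for a pair without a value. HSPA1A, HSPA1B and HSPA8 are lower by 0.59 to 1.33 in the 3 A549 pairs at 6 h, and HSPA8 is lower by 0.30 to 0.58 in the 6 H1975 pairs.

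Over the 12 pairs of arrays HSPA8 was lower with Pirfenidone in 11 pairs, by 0.59 to 1.27 in the 3 A549 pairs at 6 h, by 0.30 to 0.58 in the 6 H1975 pairs and by 0.03 in each of 2 A549 pairs at 24 h. The response of the lines was compared by the drug difference in H1975 minus that in A549. At 6 h it was 1.18 for HSPA1A (standard error 0.38, limma adjusted p = 0.925), 1.15 for HSPA1B (standard error 0.33, limma adjusted p = 0.635) and 0.52 for HSPA8 (standard error 0.19, limma adjusted p = 0.9998). For HSPA1B the 3 A549 pairs were all lower and the 3 H1975 pairs all higher with Pirfenidone. With run as a block the limma adjusted p was 0.142 for HSPA1A and 0.0701 for HSPA1B. Of the 14 probes 0 passed this limma test at 6 h, against 0.0336% of all probes, and 0 at 24 h, against 0.193%, while 3 and 1 had an unadjusted p under 0.05, against 2.63% and 12.2%. The difference between lines at 24 h was -0.44 for HSPA8 (standard error 0.19, limma adjusted p = 0.335). The difference between times in H1975 was 0.05 for HSPA8 (95% interval -0.34 to 0.44). In that limma test 0 of 14 probes passed, against 0.0042% of all probes, and 0 had an unadjusted p under 0.05, against 5.86%.

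The lines were also compared without drug. With PBS, HSPH1 was lower in H1975 than in A549 at both times. At 6 h its first probe gave 4.17, 4.68 and 4.22 in A549 (runs 1, 2 and 3) and 3.61, 3.04 and 3.23 in H1975 (runs 1, 3 and 4), without overlap. The difference of H1975 minus A549 was -1.06 (standard error 0.21, limma adjusted p = 0.000296), a 2.09-fold lower signal, and it passed both limits. It was -0.56 between the arrays of run 1 and -1.17 between those of run 3, the runs that held both lines. Without the A549 array of run 2 or the H1975 array of run 3 it was -0.90 or -0.94 and fell short of the fold limit. After 24 h the difference was -0.97 (standard error 0.21, limma adjusted p = 0.000697), and it passed both limits when the A549 or H1975 array of run 1 (-1.09 or -1.18) was left out. The arrays of run 1 differed by -0.30 and those of run 3 by -1.33, and the second probe gave -0.63 at either time (limma adjusted p = 0.0298 and 0.0299).

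HSPA1A had a lower signal in H1975 than in A549 with PBS at 6 h, where all H1975 arrays (3.46 to 3.86) lay below all A549 arrays (4.03 to 4.85), and the difference was -0.80 (standard error 0.27, limma adjusted p = 0.0164). After 24 h it was -0.58 (limma adjusted p = 0.0758). HSPA1B, its neighbor, differed by -0.30 at 6 h (limma adjusted p = 0.292) and by -0.08 at 24 h (limma adjusted p = 0.777), with overlapping groups. HSPA8 and DNAJB1 differed by no more than 0.12 in size between the lines at either time. The first probe of HSPB1 differed by 0.36 at 6 h (limma adjusted p = 0.0816) and was higher in H1975 by 0.52 at 24 h (limma adjusted p = 0.0142), whereas its second probe gave -0.27 and 0.16. At 24 h these 0.52 were 0.94 between the arrays of run 1 and 0.12 between those of run 3. HSPD1 differed by -0.28 at 24 h (limma adjusted p = 0.0470), with 0.09 between the arrays of run 1 and -0.41 between those of run 3.

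In all, 1 of 14 probes passed both limits between the lines at 6 h, against 32.4% of all probes, and 0 at 24 h, against 32.9%. Under the adjusted p alone 3 of 14 passed at 6 h, against 58.6%, and 4 at 24 h, against 59.2%. All H1975 arrays lay below all A549 arrays in 3 of the 14 probes and above them in 2, at either time. The share of all probes without overlap between the lines is not given. The 3 probes of HSP90AA1 gave -0.12, 0.24 and 0.41 at 6 h and -0.04, 0.35 and 0.56 at 24 h. None of them reached the adjusted p, and the third had no overlap at either time.

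**Figure D4:**
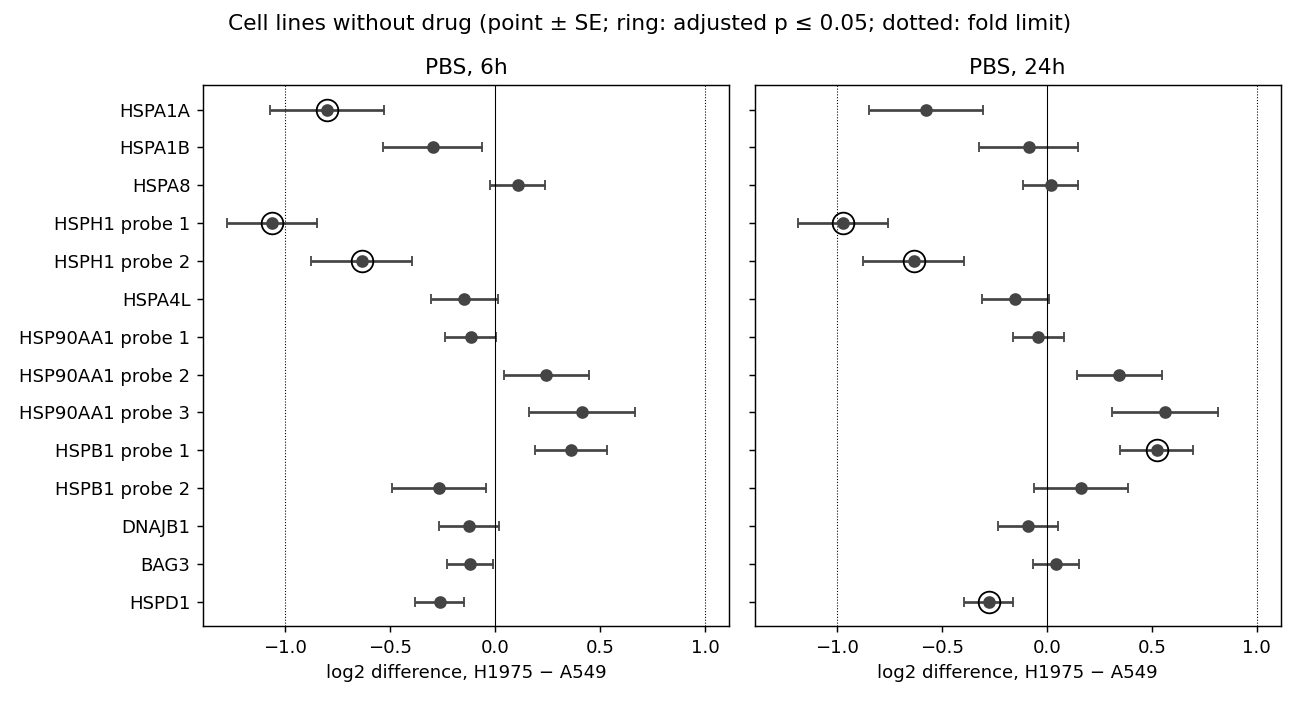
Difference between the lines with PBS (x axis, log2, H1975 minus A549) for the 14 probes (y axis) at 6 h and 24 h, as points with standard errors, with a ring at an adjusted p of 0.05 or less and dotted lines at the fold limit. HSPH1 probe 1 lies at -1.06 at 6 h and -0.97 at 24 h, and HSPB1 probe 1 lies at 0.36 and 0.52.

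The culture times were compared without drug. With PBS, 24 h against 6 h, 0 of 14 probes passed in A549, against 0.109% of all probes, and 0 in H1975, against 0.315%, by limma, and 1 and 0 had an unadjusted p under 0.05, against 8.49% and 10.6%. In A549 the 24 h arrays of DNAJB1 and BAG3 all lay below the 6 h arrays, with differences of -0.27 (limma adjusted p = 0.633) and -0.29 (limma adjusted p = 0.481), which held for 2 of the 14 probes, against 6.82% of all probes. In H1975 BAG3 alone had 24 h arrays all below the 6 h arrays (-0.13, limma adjusted p = 0.807), 1 of 14 probes against 8.23% of all probes, and the largest difference was that of HSPB1 probe 2, 0.42 (limma adjusted p = 0.555). Over the 8 group means HSPH1 had the largest range of the 10 genes, 1.39, which was mostly the difference between the lines, followed by HSPA1A with 1.06, HSPA8 with 1.05 and HSPA1B with 0.90. These ranges are those of the brightest probe of each gene. For HSP90AA1 the range was 0.15 with the brightest probe and 0.44 and 0.70 with the others, so that its place in the order turned on the probe, and BAG3 had 0.37.

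The 5 probes of other genes whose values, centered on each line, followed those of HSPH1 most closely over the 24 arrays were those of TREX2 (Pearson r 0.94), CDC26 (0.88), PPARGC1B (0.87), C3orf62 (0.87) and UHRF2 (0.87). These arrays share runs and slides, and the values are a description. Among the members, HSPA1A and HSPA1B moved most alike of the HSP70 genes, with a Pearson r of 0.93, and HSPA1A and HSPA8 followed with 0.76. HSPA1B and DNAJB1 had 0.67. HSPA1A and the 3 probes of HSP90AA1 had 0.14, -0.19 and -0.29.

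The other genes of the chaperone system comprised 59 genes in 5 lists, of which 57 were tested with 84 probes. Of these 84 probes 0 passed both limits in any of the 4 drug comparisons, and the adjusted p alone was reached by 5 probes in H1975 at 24 h, all lower, and by 0 in the other comparisons. These 5 were 5.95% of the 84 probes, against 6.26% of all probes in that comparison. They are named on the adjusted p alone, although the plan named such genes only with a probe past both limits. They belonged to 4 genes. HSPA14, an HSP70 relative at the ribosome, fell by 0.61 (standard error 0.16, limma adjusted p = 0.0291), and both probes of STIP1, the HOP protein that joins HSP70 to HSP90, fell by 0.43 and 0.47 (limma adjusted p = 0.0250 and 0.0389). CCT6A, a subunit of the cytosolic chaperonin, fell by 0.40 (limma adjusted p = 0.0295), and 1 of the 3 probes of CACYBP, which binds SIAH ubiquitin ligases, fell by 0.53 (limma adjusted p = 0.0131).

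Further genes are named here for their role, after their values were seen. HSPA6, an HSP70 gene that is induced only by strong stress, had -3.33 ± 0.37 with PBS and -4.17 ± 0.54 with Pirfenidone (SD, n = 3) in A549 at 6 h, a difference of -0.84 (standard error 0.24, limma adjusted p = 0.227). It differed by -0.05 in A549 at 24 h and by -0.03 in H1975 at 6 h. In H1975 at 24 h it differed by 0.26, with all Pirfenidone arrays above all PBS arrays (limma adjusted p = 0.589). HSPA2, another HSP70 gene, differed by -1.04 in A549 at 6 h with overlapping groups (limma adjusted p = 0.631). DNAJA1, a J protein partner of HSPA8, differed by -0.54 in A549 at 6 h, with all Pirfenidone arrays below all PBS arrays (limma adjusted p = 0.169). It differed by -0.03 in A549 at 24 h and by -0.31 and -0.38 in H1975 (6 h and 24 h). HSF1, the factor that switches the heat shock genes on, differed by 0.10 and 0.03 in A549 (6 h and 24 h) and by 0.06 and 0.09 in H1975. HSP90AB1, the constitutive HSP90, differed by -0.18, 0.08, -0.06 and -0.27 in the same order.

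By list, the 12 tested genes of the other cytosolic HSP70, HSP90 and small heat shock proteins had medians of -0.17, 0.00, -0.01 and -0.20 in that order, and the 25 J proteins and co-chaperones -0.12, -0.02, -0.07 and -0.22. The 8 subunits of the cytosolic chaperonin all had negative values in A549 at 6 h (median -0.12), H1975 at 6 h (-0.13) and H1975 at 24 h (-0.30), and 2 of 8 had one in A549 at 24 h (0.04), with the 75th percentile scaling that was used for the lists. The 5 heat shock factors and regulators had 0.08, -0.05, 0.10 and 0.09, and the 7 mitochondrial chaperones, which include HSPE1, the partner of HSPD1, had -0.06, 0.04, -0.02 and -0.24. The medians over all probes were -0.01, -0.02, 0.05 and 0.02.

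**Figure D5:**
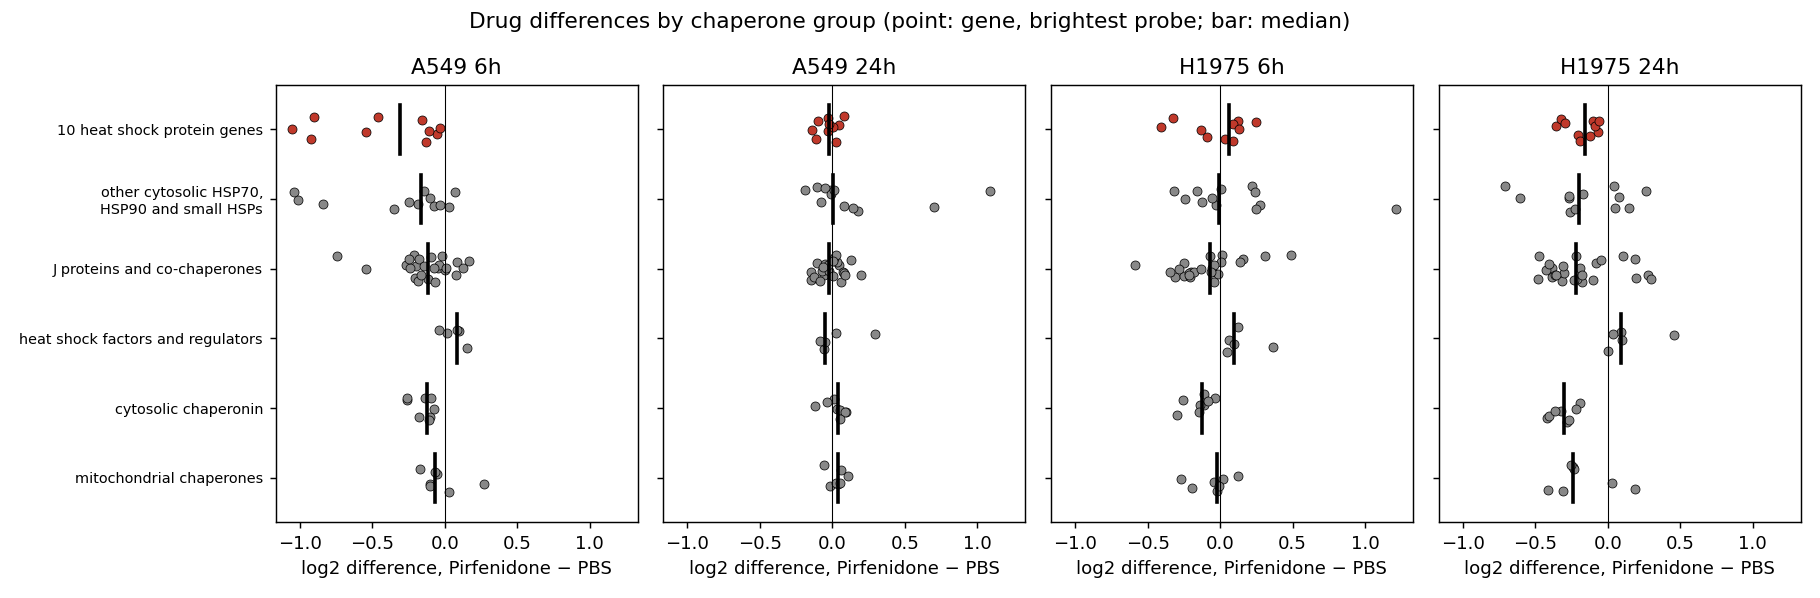
Drug difference (x axis, log2, Pirfenidone minus PBS) by chaperone group (y axis) in the 4 comparisons, with 1 point per gene (its brightest probe) and a bar for the median. The 10 heat shock protein genes have medians of -0.31 (A549, 6 h) and -0.16 (H1975, 24 h), and the cytosolic chaperonin has -0.30 in the latter.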

How the data were processed

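Total RNA of 24 samples was hybridized to one-color Agilent arrays. The deposited scanner files hold spot intensity as extracted by the authors with Agilent Feature Extraction (version 11.5.1.1, per the file headers), background-subtracted and not normalized between arrays. A deposited table holds the authors' log2 values, centered on each probe's median, and served as an alternative. The sources used here do not give its scaling.

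Each processed signal was turned to log2 and set against its array's 75th percentile over 43118 non-control spots. Spots marked as outliers were dropped, and a probe's spots were averaged. Between 62.7% and 69.5% of probes were well above background per array, and array number limits the precision. The 23827 probes well above background (share of spots at least 0.5) on all 3 arrays of a group were tested with limma 3.58.1 in R 4.3.3, two-sided, in a common fit of the 8 groups (residual degrees of freedom 16). The Westfall-Young permutation of the methods cannot reach its threshold with 3 arrays against 3, so Benjamini-Hochberg adjustment replaced it. In tests on simulated data with 200 probes changed by 1.5 (log2), 78.5%, 79.5%, 80.0% and 80.0% were recovered in A549 at 6 h and 24 h and H1975 at 6 h and 24 h. False calls numbered 1, 2, 8 and 4. The largest drug difference of a member was -1.05 (HSPA1A, A549 at 6 h), so these shares do not tell how often changes of the members' size are found. Blocks were fitted within each line.

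Named genes were all probes of the 10 members, other chaperone genes with a probe past the adjusted p, and the 5 probes most like the member with the largest range. For the other chaperone genes the plan asked for a probe past both limits, which none had. The members and lists were chosen with earlier results of these data known. The p-values of all members come from the fit over all probes, with none adjusted over the list. Alternatives were normexp (offset 50), quantile normalization, the authors' values, 2 other filters, 3 blocks, fits of the arrays compared, Holm adjustment, no fold limit, the mean of a gene's probes, A549 without run 1 at 24 h, and each array left out. Probe positions are on hg19, for which no annotation was used. For 1 further marker gene no result is reported here.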

Additional observations from a re-analysis of the deposited data

How the results depend on the processing

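Of the member probes' differences under the alternatives that change the values or the fit, which leaves out Holm adjustment and the dropped fold limit, 2911 kept their side of the limits, 12 gained a call, 3 lost one, and 0 reversed a call. With run as a block 1 member passed in A549 at 6 h (HSPA1A), against 0.323% of all probes, and 1 in the time difference of A549 (HSPA8). With slide as a block 1 passed in A549 at 6 h (HSPA1A) and 1 between the lines with PBS at 24 h (HSPH1). PBS and Pirfenidone arrays of equal replicate number shared a run in A549 at either time and in H1975 at 24 h. In H1975 at 6 h they came from different runs, and their correlations were -0.48, 0.43 and -0.68. With the replicate block 0 members passed in each drug comparison and 1 between the lines at 6 h, as without it. Between the lines at 6 h, 0 passed with quantile normalization and 0 with Holm adjustment. Without a fold limit 1 passed in A549 at 6 h, and 3 and 4 between the lines at 6 h and 24 h. Without the A549 arrays of run 1 at 24 h, 1 passed between the lines at 24 h. The causes were not tested, except that a dropped limit admits smaller differences by construction. For the other block fits and the fits with arrays left out, the share of all probes that passed is not given. Their counts of members therefore cannot be set against such a share.

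With each array left out in turn, the members passing ranged from 0 to 3 in A549 at 6 h, 0 to 1 in the time difference of A549, 0 to 2 between the lines at 6 h and 0 to 1 at 24 h, without a share of all probes to set beside them. The highest counts came without the 6 h Pirfenidone array of A549 replicate 1 (run 2) for the former pair, and without the 6 h PBS array of A549 replicate 3 for the lines at 6 h, where HSPA1A gave -1.0. The median over the member genes ranged from -0.41 to -0.23 in A549 at 6 h and from -0.20 to -0.12 in H1975 at 24 h, where it was -0.18 with normexp, -0.13 with quantile normalization and -0.20 with the authors' values. In A549 at 24 h and H1975 at 6 h these medians lay within 0.08 of 0 and took either sign. Normexp moved the median of all probes in H1975 at 6 h to 0.29 from 0.05. All members were well above background on every array.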

Other observations

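HSPA8 was not the gene chosen by rule for the search of similar profiles, and its search was added after its values were seen. Over the 24 arrays, centered on each line, the probes most like it were those of MAPKAP1 (Pearson r 0.91), HNRNPA0 (0.90 and 0.89 with different probes), RBM12 (0.88) and ZC3HAV1 (0.88). The most opposite were those of SIAH2 (-0.89), HERPUD1 (-0.89) and DDIT3 (-0.88), of which HERPUD1 and DDIT3 are known as genes of the stress response of the endoplasmic reticulum. The probe of ZC3HAV1 was also the most like HSPA1A (0.88). The points share runs and slides, and the correlations are a description.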
